A study of Mus musculus with 6 samples.

Results

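Collagen genes were described in livers of mouse pups at postnatal day 10. They were taken as all entries of the deposited RefSeq table named Col, a number, the letter a and a number, which gave 44 of 24489 gene entries. Of these, 42 had at least 10 reads summed over the 6 libraries, and the other two, Col9a1 and Col19a1 (5 reads and 1 read), are only counted. The 44 genes fell into 11 fibrillar, 8 basement membrane and 25 other collagens. RNA with poly(A) tails from 1 liver lobe was sequenced in 3 libraries of Jag1Ndr/Ndr and 3 of Jag1+/+ pups, all untreated and of mixed C3H/C57bl6J background. The Notch ligand gene Jag1 carries in Nodder (Ndr) pups a missense change, present in all cells, and homozygotes serve to model Alagille syndrome, a disorder with few bile ducts. The labels do not say that each library came from a separate pup, so the p-values measure the spread between libraries, part of which may be technical.

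Collagens are the main structural proteins of the extracellular matrix, built of 3 chains wound into a triple helix, so that several genes often supply 1 molecule. Fibrillar collagens such as I, III and V form the tensile fibrils that accumulate in scarred liver, where stellate cells and portal fibroblasts make most of them. Collagen IV forms the sheet-like network of basement membranes, collagen VI forms beaded filaments around cells, and the FACIT collagens sit on the surface of fibrils. Hepatocytes are the main source of collagen XVIII in liver.

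Depth ranged from 12992592 to 59653111 reads over gene entries per library. Xist and Y-linked reads marked Jag1+/+ replicate 1 and Jag1Ndr/Ndr replicates 2 and 3 as female and the other libraries as male. The sexes were thus unevenly divided between the genotypes, so sex and genotype are partly confounded. Levels are in CPM, read counts relative to library size after TMM scaling, given as mean ± SD of 3 libraries per genotype, and log2 fold changes are Jag1Ndr/Ndr over Jag1+/+ with their standard error (SE). In bulk RNA, fewer cells of a type and less RNA per cell cannot be told apart.

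No collagen gene rose and 3 fell in Jag1Ndr/Ndr livers, among 33 with enough reads to be tested (edgeR's quasi-likelihood test, adjusted p under 0.05 with Benjamini-Hochberg adjustment over 13819 genes). The genes that fell, Col6a6, Col26a1 and Col9a3, belong to the class of other collagens and had low levels in both genotypes. Over all genes tested, 4.73% were called higher and 2.9% lower, or 7.63% in either direction. At an unadjusted p under 0.05, 5 collagens were higher and 6 lower, against 13% and 9.5% of all genes tested. DESeq2 called 4 collagens higher and 2 lower, beside 1137 higher and 753 lower among all 13819 genes tested. The genotypes did not overlap in CPM for 5 collagens that were higher and 7 that were lower in Jag1Ndr/Ndr livers, where 14.8% and 14.2% of all genes tested did not overlap. The count of 0 higher collagens became 3 of 37 tested without Jag1Ndr/Ndr replicate 1 (Col5a2, Col6a1 and Col6a2). In that fit 679 of all 14298 genes tested were called higher. The count of 3 lower collagens became 1 of 32 tested (Col6a6) without Jag1Ndr/Ndr replicate 2, where 404 of all 13585 genes tested were called lower. The number of all genes called also varied between fits that left out 1 library, with the range given at the end.

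**Figure D1:**
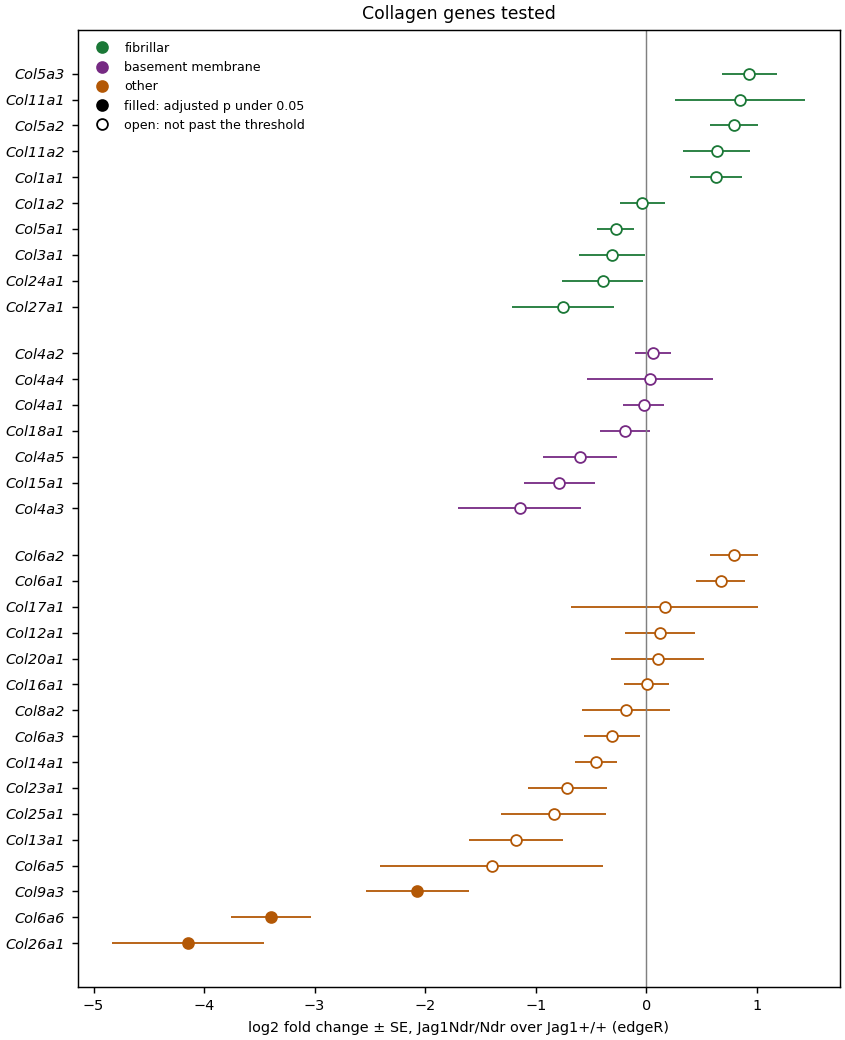
Log2 fold change (x axis, Jag1Ndr/Ndr over Jag1+/+) of the 33 collagen genes tested, ordered within the fibrillar, basement membrane and other classes. Points are edgeR estimates, bars are 1 SE to each side, and filled points passed an adjusted p of 0.05. The only filled points are Col9a3, Col6a6 and Col26a1, at -2.07, -3.39 and -4.14.

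Collagen reads made up 0.314%, 0.326% and 0.319% of all reads in Jag1+/+ replicates 1, 2 and 3, and 0.267%, 0.339% and 0.339% in Jag1Ndr/Ndr replicates 1, 2 and 3. The Jag1Ndr/Ndr libraries lay on both sides of the Jag1+/+ range. Summed fibrillar collagens measured 876, 757 and 784 CPM in Jag1+/+ and 547, 764 and 968 CPM in Jag1Ndr/Ndr replicates 1, 2 and 3. The lowest and the highest of these sums were both from Jag1Ndr/Ndr livers. Basement membrane collagens summed to between 1976 and 2318 CPM in Jag1+/+ and between 1713 and 2283 CPM in Jag1Ndr/Ndr livers. The other collagens summed to between 334 and 355 CPM and between 246 and 357 CPM. Jag1Ndr/Ndr replicate 1 was the lowest library for both the fibrillar and the other sum.

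**Figure D2:**
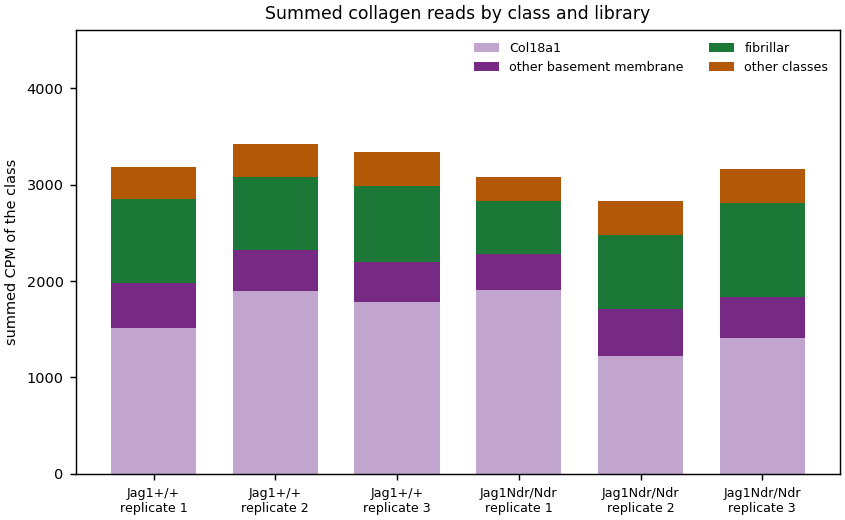
Summed CPM (y axis, from 0) of collagen genes in each of the 6 libraries, stacked by class with Col18a1 shown apart. Bars are single libraries without error. Col18a1 is the largest block in every library, and the fibrillar block runs from 547 CPM in Jag1Ndr/Ndr replicate 1 to 968 CPM in Jag1Ndr/Ndr replicate 3.

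Fibrillar genes showed no call in either direction. Of 11, 10 were tested, with a median log2 fold change of 0.30 beside 0.0041 over all genes tested; the median was -0.0025 with sex as a covariate and 0.025 without Jag1Ndr/Ndr replicate 2. Col3a1, the single chain of collagen III (chromosome 1, positions 45311538 to 45349706 of GRCm38), was the most abundant fibrillar gene per length, with a mean of 73.4 RPKM (reads per kilobase of transcript and depth unit, as deposited) in Jag1+/+ and 77.2 RPKM in Jag1Ndr/Ndr livers. Here and below, the deposited RPKM were multiplied by TMM factors, whereas edgeR divides by its own. This scale raises the median log2 fold change of all genes, so RPKM rank genes but compare genotypes poorly. In CPM, the Col3a1 means were 436 in Jag1+/+ and 351 in Jag1Ndr/Ndr livers. Col3a1 measured 467, 396 and 444 CPM in Jag1+/+ replicates 1, 2 and 3 and 215, 321 and 519 CPM in Jag1Ndr/Ndr replicates 1, 2 and 3. The Jag1Ndr/Ndr libraries thus spread to both sides of the Jag1+/+ ones, and the log2 fold change was -0.31 ± 0.30 (edgeR adjusted p = 0.622).

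Collagen I, the main fibril former of scar tissue, is built of chains from Col1a1 and Col1a2. Col1a1 (chromosome 11, positions 94936224 to 94953042) measured 85.7, 61.0 and 49.4 CPM in the Jag1+/+ libraries and 87.0, 92.8 and 124 CPM in the Jag1Ndr/Ndr libraries. The groups did not overlap, but by a narrow margin, since Jag1+/+ replicate 1 nearly reached Jag1Ndr/Ndr replicate 1. Col1a1 stood at 0.63 ± 0.23 on the log2 scale and did not pass (edgeR adjusted p = 0.151). Col1a2 (chromosome 6, positions 4505618 to 4541543) measured 157, 111 and 107 CPM in Jag1+/+ and 103, 122 and 142 CPM in Jag1Ndr/Ndr livers. The genotypes overlapped, and the log2 estimate was -0.03 ± 0.20 (edgeR adjusted p = 0.951). It became 0.094 with library totals alone, 0.21 in the deposited RPKM and -0.17 with sex as a covariate. The female libraries (157, 122 and 142 CPM) all lay above the male ones (111, 107 and 103 CPM). This split by sex was noticed after the values were seen, and the share of all genes that split so was not computed.

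Collagen V is a minor partner within collagen I fibrils and sets their diameter. Its chain genes Col5a2 and Col5a3 had the largest positive values among fibrillar collagens above 2 CPM, and both were singled out after their values were seen. Col5a2 (chromosome 1, positions 45374331 to 45503282), which lies 24624 bases from Col3a1, measured 36.7, 30.4 and 32.2 CPM in Jag1+/+ and 40.9, 74.8 and 55.9 CPM in Jag1Ndr/Ndr livers. Col5a3 (chromosome 9, positions 20770050 to 20815117) measured 8.63, 14.6 and 16.7 CPM in Jag1+/+ and 28.6, 22.6 and 25.8 CPM in Jag1Ndr/Ndr livers. In both genes every Jag1Ndr/Ndr library lay above every Jag1+/+ library. The log2 fold changes of 0.79 ± 0.22 and 0.93 ± 0.25 did not pass (edgeR adjusted p = 0.0659 and 0.0575), while DESeq2 called both (adjusted p = 0.0130 and 0.00747). Col5a3 also passed without a filter on low counts, with library totals alone and with sex as a covariate (edgeR adjusted p = 0.0433, 0.0478 and 0.0300), but not with limma on RPKM values as deposited (pseudocount 1, adjusted p = 0.205). Col5a1 (chromosome 2, positions 27886381 to 28039510), the chain common to most collagen V, measured 88.0, 93.1 and 90.1 CPM in Jag1+/+ and 60.8, 86.1 and 76.5 CPM in Jag1Ndr/Ndr livers. Here every Jag1Ndr/Ndr library lay below the Jag1+/+ ones, and the log2 fold change was -0.28 ± 0.16 (edgeR adjusted p = 0.375).

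The remaining fibrillar genes were less abundant. Col27a1, a fibrillar collagen best known from cartilage, measured 28.5, 46.3 and 40.0 CPM in Jag1+/+ and 8.33, 39.3 and 19.3 CPM in Jag1Ndr/Ndr livers, and stood at -0.76 ± 0.46 on the log2 scale (edgeR adjusted p = 0.391). Jag1Ndr/Ndr replicates 1 and 3 lay below every Jag1+/+ library and replicate 2 lay within their range. The Col27a1 estimate was -0.38 without Jag1Ndr/Ndr replicate 1 and -1.45 without Jag1Ndr/Ndr replicate 2. Col11a1 and Col11a2, chains of cartilage fibrils, and Col24a1 had group means between 0.717 and 2.73 CPM and log2 fold changes of 0.85 ± 0.59, 0.64 ± 0.30 and -0.39 ± 0.37. None of these passed (edgeR adjusted p = 0.460, 0.260 and 0.606). Col2a1, the main collagen of cartilage, had 10 reads in all, 9 of them in Jag1Ndr/Ndr replicate 2.

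**Figure D3:**
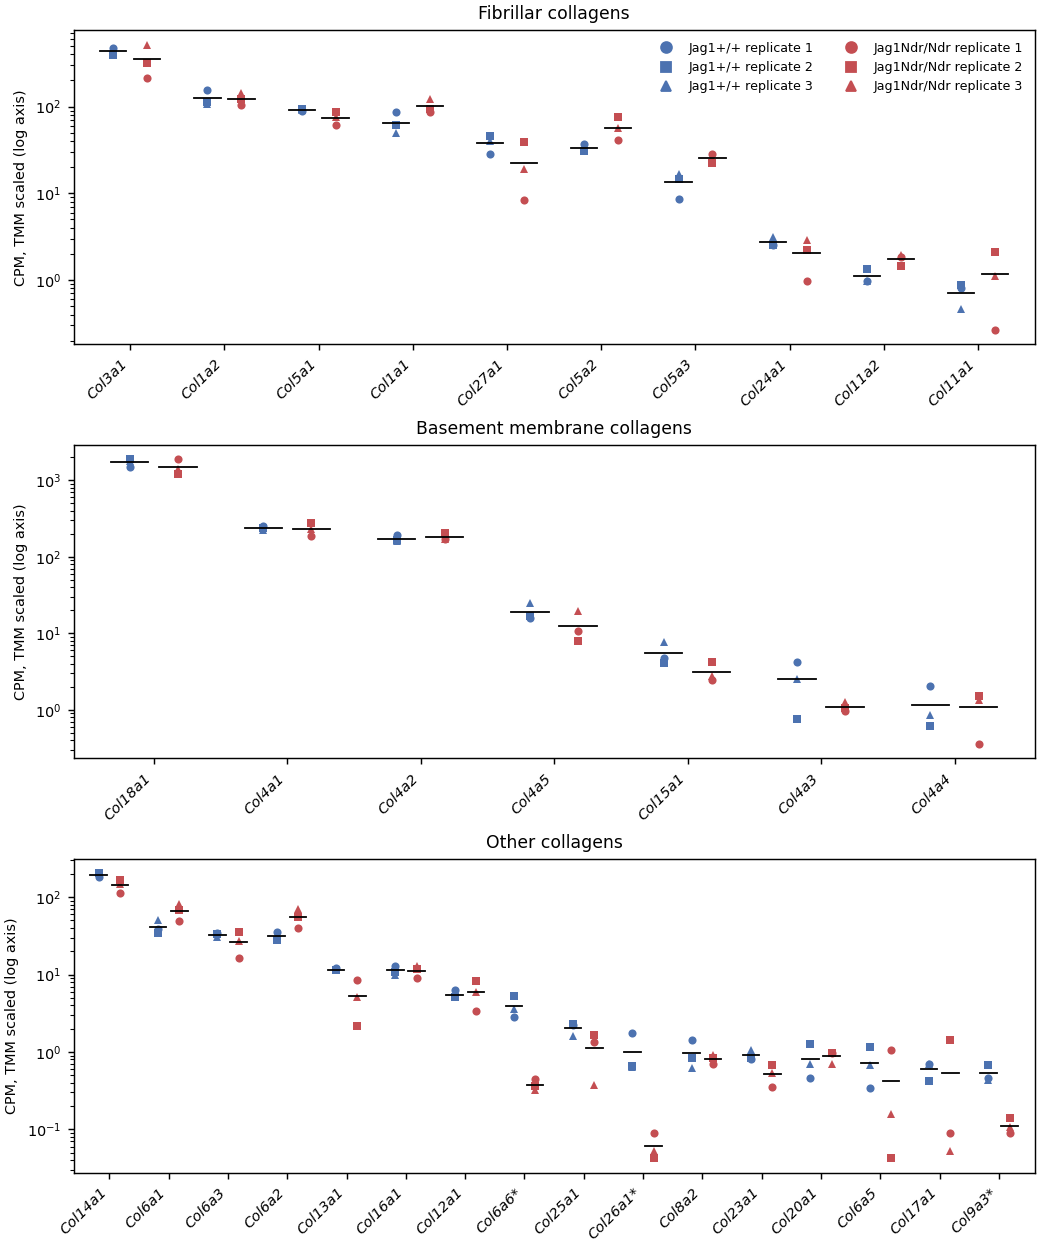
Level of each tested collagen gene in CPM scaled by TMM (log y axis) in the 6 libraries, by class and in order of the Jag1+/+ mean. Points are libraries, with a marker shape for each replicate number, short lines are group means, and asterisks mark genes past an adjusted p of 0.05. The Jag1Ndr/Ndr points of Col6a6, Col26a1 and Col9a3 lie below 0.5 CPM and apart from the Jag1+/+ points.

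Basement membrane collagens held the most abundant collagen of the liver and had no call. All 8 had at least 10 reads and 7 were tested, with a median log2 fold change of -0.19 that was 0.035 in the deposited RPKM and -0.59 with sex as a covariate. Col18a1 (chromosome 10, positions 77052178 to 77166530), whose C-terminal fragment is the vessel inhibitor endostatin, ranked first per length in both genotypes, with mean levels of 288 and 297 RPKM in Jag1+/+ and Jag1Ndr/Ndr livers. Between 43.07% and 62.1% of the collagen reads in a library were from this gene. It measured 1509, 1894 and 1779 CPM in Jag1+/+ and 1909, 1220.3 and 1412 CPM in Jag1Ndr/Ndr livers. Jag1Ndr/Ndr replicate 1 was the highest of the 6 libraries and replicates 2 and 3 were the lowest. The values also split by sex, at 1509, 1220.3 and 1412 CPM in female and 1894, 1779 and 1909 CPM in male libraries. This split was noticed after the values were seen and was not tested. With sex as a covariate the log2 fold change was -0.07 (edgeR adjusted p = 0.872). The log2 fold change of -0.19 ± 0.23 (edgeR adjusted p = 0.693) stood at 0.035 in the deposited RPKM, and Col18a1 overlaps the annotated gene Gm7775. Albumin (Alb), a hepatocyte product, was between 176061 and 180201 CPM in Jag1+/+ livers and was also highest in replicate 1 among the Jag1Ndr/Ndr libraries (150001, 86174 and 102119 CPM in replicates 1, 2 and 3), and its part in the Col18a1 values was not tested.

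Col4a1 and Col4a2 supply the chains of the common collagen IV network, which lines vessels and bile ducts. They lie head to head on chromosome 8, at positions 11198423 to 11312889 and 11312805 to 11449287, so that the annotated genes overlap at their starts. With 1 annotated transcript start taken per gene, 11312826 and 11312805, the overlap is 22 bases, which is less than the gene positions give. Col4a1 measured 250, 236 and 221 CPM in Jag1+/+ and 188, 275 and 232 CPM in Jag1Ndr/Ndr livers. Col4a2 measured 191, 166 and 163 CPM in Jag1+/+ and 171, 202 and 170 CPM in Jag1Ndr/Ndr livers. For both genes the Jag1+/+ range lay within or overlapped that of Jag1Ndr/Ndr. Their log2 fold changes were -0.02 ± 0.19 and 0.06 ± 0.16 (edgeR adjusted p = 0.962 and 0.870), and Col4a1 turned to 0.12 with library totals alone and 0.20 in the deposited RPKM.

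Col4a3, Col4a4 and Col4a5 make the collagen IV form known from kidney filters, and Col4a5 was the most abundant of these. Col4a5 measured 15.6, 16.7 and 24.9 CPM in Jag1+/+ and 10.5, 8.04 and 19.3 CPM in Jag1Ndr/Ndr livers, and stood at -0.60 ± 0.34 on the log2 scale (edgeR adjusted p = 0.341). Col4a3 stood at 2.49 ± 1.74 and 1.10 ± 0.159 CPM, the Jag1+/+ mean resting on replicates 1 and 3. Col4a4, its head-to-head neighbour on chromosome 1, stood at 1.17 ± 0.755 and 1.07 ± 0.629 CPM. Col15a1, a collagen of vessel basement membranes, stood at 5.52 ± 1.91 and 3.15 ± 0.917 CPM, or -0.78 ± 0.32 on the log2 scale (edgeR adjusted p = 0.197). Col4a6 had 63 reads in all, 33 of them in the deepest library, and was not tested.

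The class of other collagens held all 3 calls, with 16 of 25 genes tested and a median log2 fold change of -0.38. Col6a6 (chromosome 9, positions 105689417 to 105828246) encodes an alternative chain of collagen VI that can take the place of the alpha-3 chain. It measured 2.84, 5.26 and 3.57 CPM in Jag1+/+ replicates 1, 2 and 3 and 0.443, 0.365 and 0.320 CPM in Jag1Ndr/Ndr replicates 1, 2 and 3, from 49, 162, 138, 5, 26 and 6 reads. The lowest Jag1+/+ library thus stood well above the highest Jag1Ndr/Ndr one. The log2 fold change was -3.39 ± 0.36, a 10.5-fold fall (edgeR adjusted p = 0.00300), and Col6a6 was called under all 14 alternatives run, including each library left out.

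Upstream sequence is shown for Col6a6, the most strongly supported fall, for Col5a3, with the largest positive value of any tested collagen, and for the neighbours Col6a1 and Col6a2. Each stretch is from RefSeq's promoter table for GRCm38.p6, minus strand, 5′ to 3′, and ends before the outermost start annotated in RefSeq or GENCODE. For Col6a1 that start is a GENCODE one, so that its stretch lies 124 bases beyond the RefSeq gene end given for Col6a1 with its values. The positions are chr9:105828247-105828335 for Col6a6, chr9:20815118-20815317 for Col5a3, chr10:76726169-76726294 for Col6a1 and chr10:76623631-76623880 for Col6a2. Capitals mark matches on either strand to TATAAA (the TATA box), CCAAT (the CCAAT box), GGGCGG (the GC box) or TGGGAA (the core bound by the Notch effector RBPJ).
Col6a6: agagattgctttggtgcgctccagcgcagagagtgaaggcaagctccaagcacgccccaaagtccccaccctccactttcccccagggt
Col5a3: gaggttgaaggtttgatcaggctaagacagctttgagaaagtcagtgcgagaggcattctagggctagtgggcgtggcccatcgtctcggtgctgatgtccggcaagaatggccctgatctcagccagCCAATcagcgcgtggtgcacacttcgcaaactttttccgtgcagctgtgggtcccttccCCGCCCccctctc
Col6a1: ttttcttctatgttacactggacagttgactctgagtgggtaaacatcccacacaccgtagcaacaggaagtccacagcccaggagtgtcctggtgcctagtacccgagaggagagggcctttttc
Col6a2: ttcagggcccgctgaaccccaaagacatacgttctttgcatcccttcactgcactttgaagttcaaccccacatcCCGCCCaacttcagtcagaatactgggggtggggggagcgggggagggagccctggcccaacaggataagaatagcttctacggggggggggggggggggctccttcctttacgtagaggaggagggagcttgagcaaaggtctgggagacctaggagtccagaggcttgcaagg

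Of the 44 collagen genes, 35 had an entry in that table, and Col26a1, Col9a3, Col1a1 and Col5a2 were among those without one. The Col5a3 stretch of 200 bases held 1 CCAAT and 1 GGGCGG match, which 28.4% and 24.6% of all table entries hold over the same length. The Col6a2 stretch of 250 bases held 1 GGGCGG match, present in 32.7% of entries over that length. The stretches of 89 bases for Col6a6 and 126 bases for Col6a1 held none of the 4 motifs, and TGGGAA is present in 8.44% and 11.8% of entries over those lengths. A match is a description of letters and not a binding site.

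Col26a1 (chromosome 5, positions 136741759 to 136883376) encodes a short secreted collagen first described in testis and ovary. It had 30, 20 and 25 reads in Jag1+/+ replicates 1, 2 and 3 and 1, 3 and 1 reads in Jag1Ndr/Ndr replicates 1, 2 and 3. These correspond to 1.74, 0.649 and 0.646 CPM and to 0.0886, 0.0421 and 0.0533 CPM, so the groups lay far apart at a very low level. The ratio of pooled rates, Jag1+/+ over Jag1Ndr/Ndr, was 17.5 (95% exact Poisson interval 7.18 to 55.5, for counting error only), and the fitted log2 fold change was -4.14 ± 0.69 (edgeR adjusted p = 0.0120). Col26a1 lost its edgeR call without Jag1Ndr/Ndr replicate 2 (adjusted p = 0.0518) and with limma on RPKM values plus a pseudocount of 1, which shrinks changes of low genes (log2 difference -0.39, limma adjusted p = 0.131). Under the stricter filter it was not tested.

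Col9a3 (chromosome 2, positions 180598102 to 180622192) encodes a chain of collagen IX, a FACIT collagen on cartilage fibrils. It measured 0.463, 0.682 and 0.439 CPM in Jag1+/+ and 0.0886, 0.140 and 0.107 CPM in Jag1Ndr/Ndr livers, from 8, 21, 17, 1, 10 and 2 reads. The groups did not overlap, and the log2 fold change was -2.07 ± 0.47 (edgeR adjusted p = 0.0352). Pooled rates had a ratio of 4.13 (95% exact Poisson interval 2.19 to 8.33). The call was lost with DESeq2 (adjusted p = 0.0692), library totals alone, limma on RPKM values and adjustment for sex. Leaving out Jag1+/+ replicate 1 also ended it (edgeR adjusted p = 0.0917), as did leaving out Jag1Ndr/Ndr replicate 1 (0.0544) or Jag1Ndr/Ndr replicate 3 (0.0799). When Jag1+/+ replicate 2, Jag1+/+ replicate 3 or Jag1Ndr/Ndr replicate 2 was left out, and under the stricter filter, Col9a3 had too few reads to be tested. Its partner chain Col9a2 had 10, 14 and 12 reads in Jag1+/+ and 2, 8 and 6 in Jag1Ndr/Ndr livers, at 0.448 ± 0.135 and 0.203 ± 0.106 CPM, and was not tested. Col26a1 and Col9a3 overlap other annotated genes (Gm30654, Gm20485 and Tcfl5), and counting without strand cannot separate the reads of overlapping genes. The same limit holds for further collagens that overlap annotated genes, among them Col5a1, Col13a1, Col14a1, Col15a1 and Col27a1.

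Collagen VI genes did not move as 1 group. Col6a1 and Col6a2, which lie 85161 bases apart on chromosome 10 (positions 76708792 to 76726044 and 76595756 to 76623630), encode the alpha-1 and alpha-2 chains found in every collagen VI molecule. Col6a1 measured 39.2, 34.6 and 50.8 CPM in Jag1+/+ and 48.9, 68.7 and 80.9 CPM in Jag1Ndr/Ndr livers. Col6a2 measured 35.5, 27.8 and 32.3 CPM in Jag1+/+ and 40.1, 54.6 and 70.9 CPM in Jag1Ndr/Ndr livers. The groups overlapped for Col6a1, where Jag1Ndr/Ndr replicate 1 fell within the Jag1+/+ range, and did not for Col6a2. The log2 fold changes of 0.67 ± 0.22 and 0.80 ± 0.22 did not pass (edgeR adjusted p = 0.112 and 0.0621), while DESeq2 called both (adjusted p = 0.0481 and 0.0119), as did edgeR without Jag1Ndr/Ndr replicate 1 (0.0389 and 0.0199).

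Col6a3, the gene of the usual alpha-3 chain (chromosome 1, positions 90766860 to 90844001), measured 34.7, 33.3 and 30.6 CPM in Jag1+/+ and 16.3, 35.4 and 27.4 CPM in Jag1Ndr/Ndr livers. Jag1Ndr/Ndr replicate 1 was the lowest library and replicate 2 the highest, and the log2 fold change was -0.31 ± 0.25 (edgeR adjusted p = 0.551). Col6a5, an alternative chain gene 27823 bases from Col6a6, measured 0.347, 1.17 and 0.672 CPM in Jag1+/+ and 1.06, 0.0421 and 0.160 CPM in Jag1Ndr/Ndr livers. Unlike Col6a6, its groups overlapped, because Jag1Ndr/Ndr replicate 1 was high, and its log2 fold change was -1.40 ± 1.01 (edgeR adjusted p = 0.480). Col6a4, the remaining alternative chain gene, had 14 reads in all.

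Among FACIT collagens, Col14a1, which binds fibrils and was the fourth most abundant collagen gene per length in Jag1+/+ livers, measured 180, 204 and 203 CPM in Jag1+/+ and 114, 169 and 147 CPM in Jag1Ndr/Ndr livers. The groups did not overlap, and the log2 fold change of -0.45 ± 0.19 did not pass (edgeR adjusted p = 0.195). Col16a1, Col12a1 and Col20a1 had group means between 0.809 and 11.3 CPM and log2 fold changes between 0.0033 and 0.12, each of which turned negative under at least 1 alternative. Among membrane-spanning collagens, Col13a1 measured 12.0, 11.4 and 11.3 CPM in Jag1+/+ and 8.60, 2.17 and 5.17 CPM in Jag1Ndr/Ndr livers. The Jag1+/+ libraries were close together and all above the scattered Jag1Ndr/Ndr ones. Its log2 fold change was -1.18 ± 0.42 (edgeR adjusted p = 0.138), and it passed without Jag1Ndr/Ndr replicate 1 (-1.72, adjusted p = 0.0354). Col25a1 and Col23a1 stood at -0.84 ± 0.48 and -0.71 ± 0.36 on the log2 scale and did not pass (edgeR adjusted p = 0.353 and 0.291).

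Col17a1, of epithelial attachment plaques, was high in 1 library: it had 103 reads in Jag1Ndr/Ndr replicate 2 and 1 read each in replicates 1 and 3, beside 12, 13 and 27 reads in the Jag1+/+ libraries. Its log2 fold change of 0.17 ± 0.85 became -3.06 without Jag1Ndr/Ndr replicate 2 (edgeR adjusted p = 0.0506). Col8a2, of short-chain networks, stood at 0.971 ± 0.428 and 0.819 ± 0.101 CPM. The 9 genes with at least 10 reads that were not tested were Col2a1, Col4a6, Col6a4, Col7a1, Col8a1, Col9a2, Col10a1, Col22a1 and Col28a1, with 10 to 72 reads each. None of them passed when the filter was dropped (smallest edgeR adjusted p = 0.126, for Col8a1). Of these, Col8a1 and Col10a1 had every Jag1Ndr/Ndr library below every Jag1+/+ library, at 0.426 ± 0.0819 and 0.133 ± 0.0691 CPM for Col8a1. Col10a1 had 1, 4 and 4 reads in Jag1+/+ and 0, 2 and 0 reads in Jag1Ndr/Ndr replicates 1, 2 and 3. A library with 0 reads of a gene allows up to 0.0421 CPM in the deepest and 0.266 CPM in the shallowest library (3 reads, counting error only). The shallowest library is Jag1Ndr/Ndr replicate 1, and its limit exceeds the Jag1+/+ values of Col10a1 (0.0579, 0.130 and 0.103 CPM). The separation of Col10a1 is therefore not resolved at this depth.

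Chains that share a molecule were set against each other within each library, where scaling between libraries cancels. These ratios of deposited RPKM were chosen after the gene values were seen. Col1a1 over Col1a2 was 0.598, 0.599 and 0.503 in Jag1+/+ and 0.921, 0.834 and 0.957 in Jag1Ndr/Ndr replicates 1, 2 and 3. Each Jag1Ndr/Ndr library thus held more Col1a1 per Col1a2 than any Jag1+/+ library, and the log2 difference of 0.68 ranged from 0.59 to 0.73 when 1 library was left out. Col5a2 over Col5a1 was 0.530, 0.415 and 0.454 in Jag1+/+ and 0.854, 1.10 and 0.928 in Jag1Ndr/Ndr livers. Col5a3 over Col5a1 was 0.203 ± 0.0615 in Jag1+/+ and 0.492 ± 0.146 in Jag1Ndr/Ndr livers.

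In collagen VI, Col6a1 over Col6a3 was 2.58, 2.39 and 3.88 in Jag1+/+ and 6.84, 4.49 and 6.78 in Jag1Ndr/Ndr livers. Col6a2 over Col6a3 was 2.39 ± 0.302 and 5.37 ± 1.37, and Col6a6 over Col6a3 was 0.153 ± 0.0490 and 0.0210 ± 0.0119. In contrast, the ratio of Col6a1 to Col6a2 was 1.23 ± 0.226 and 1.13 ± 0.0564, and that of Col4a1 to Col4a2 was 1.32 ± 0.0508 and 1.24 ± 0.144, with overlapping groups in both. Of the 8 ratios, 6 did not overlap between genotypes. This count carries no weight of its own, since the pairs were picked from values already seen and several share a gene. No share over other gene pairs was computed. With 3 libraries per genotype a two-sided exact permutation test cannot go below 0.1, the value that these 6 ratios gave (adjusted over the 8 ratios, exact p = 0.133), and the ratios of Col4a1 to Col4a2 and of Col6a1 to Col6a2 gave exact p of 0.6 and 0.8. No ratio can therefore pass a threshold of 0.05 in this design.

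**Figure D4:**
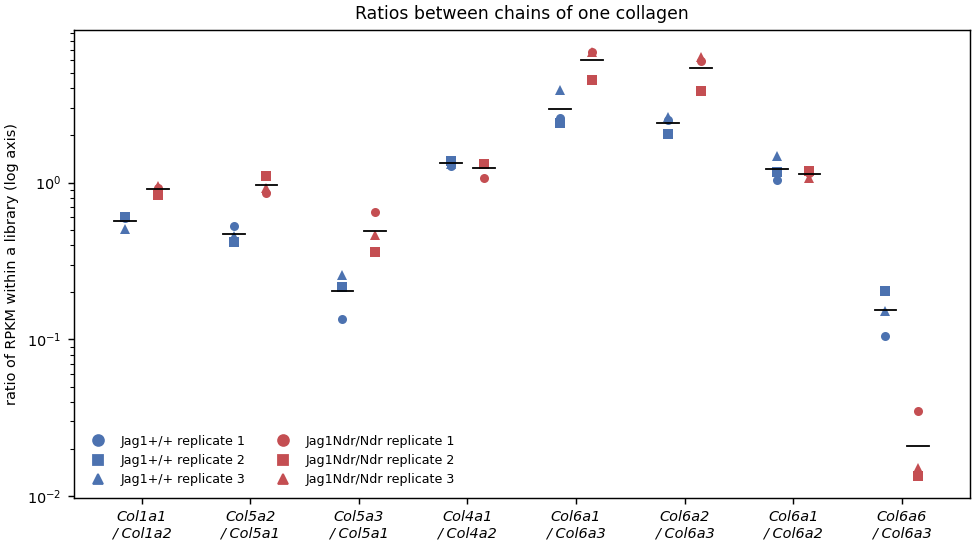
Ratio of the deposited RPKM of 2 collagen chain genes within each library (log y axis) for 8 pairs. Points are libraries, with a marker shape for each replicate number, and short lines are group means. Col1a1 over Col1a2 lies between 0.503 and 0.599 in Jag1+/+ and between 0.834 and 0.957 in Jag1Ndr/Ndr livers, while the groups overlap for Col4a1 over Col4a2 and Col6a1 over Col6a2.

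In 5 lists of genes that make, assemble, bind or sense collagens, 2 of 71 tested genes rose and 1 fell, or 4.23% called beside 7.63% of all genes tested. Of 21 tested genes for hydroxylation, folding and export, none was called in either direction (edgeR), with a median log2 fold change of 0.29. Serpinh1, the collagen chaperone HSP47, measured 65.8 ± 8.06 and 72.3 ± 13.5 CPM. The prolyl hydroxylase subunit P4ha2 stood highest in this list, at 1.20 ± 0.40 (edgeR adjusted p = 0.112). Of 12 tested genes for procollagen cleavage and crosslinking none was called either, the median being 0.30. Adamts14, a procollagen N-proteinase, measured 4.29, 4.48 and 4.57 CPM in Jag1+/+ and 7.80, 14.1 and 7.04 CPM in Jag1Ndr/Ndr livers (edgeR adjusted p = 0.0519). The crosslinking enzyme Lox stood at 1.07 ± 0.36 and its relative Loxl4 at -0.91 ± 0.28 (edgeR adjusted p = 0.114 and 0.0929).

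Among 11 tested proteins that bind fibrils, 1 fell and none rose, with a median of 0.27. Podn (podocan), a small leucine-rich proteoglycan, measured 12.8, 9.93 and 13.4 CPM in Jag1+/+ and 4.96, 4.42 and 5.28 CPM in Jag1Ndr/Ndr livers (log2 fold change -1.31 ± 0.20, edgeR adjusted p = 0.00948). Decorin (Dcn), which coats collagen I fibrils, measured 182 ± 18.7 and 262 ± 28.5 CPM without overlap and did not pass (edgeR adjusted p = 0.106). Of 12 collagen receptors tested, with a median of 0.43, 1 rose and none fell. Ddr1, a receptor tyrosine kinase of epithelial cells, measured 5.68, 4.87 and 3.62 CPM in Jag1+/+ and 17.4, 11.1 and 14.2 CPM in Jag1Ndr/Ndr livers (log2 fold change 1.59 ± 0.25, edgeR adjusted p = 0.0101). Its relative Ddr2, of mesenchymal cells, stood at -0.54 ± 0.27 (edgeR adjusted p = 0.289). Of 15 tested basement membrane partners, 1 rose and none fell, with a median of -0.0076. This was Lamb2, the laminin beta-2 chain, at 14.2 ± 1.08 and 29.7 ± 5.57 CPM (log2 fold change 1.06 ± 0.18, edgeR adjusted p = 0.0131). Podn and Lamb2 lost their calls in the deposited RPKM, Podn without Jag1+/+ replicate 3 (edgeR adjusted p = 0.0502), Ddr1 without Jag1+/+ replicate 2 (0.0536) and Lamb2 without any 1 of the Jag1+/+ libraries (0.0610 to 0.0771).

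**Figure D5:**
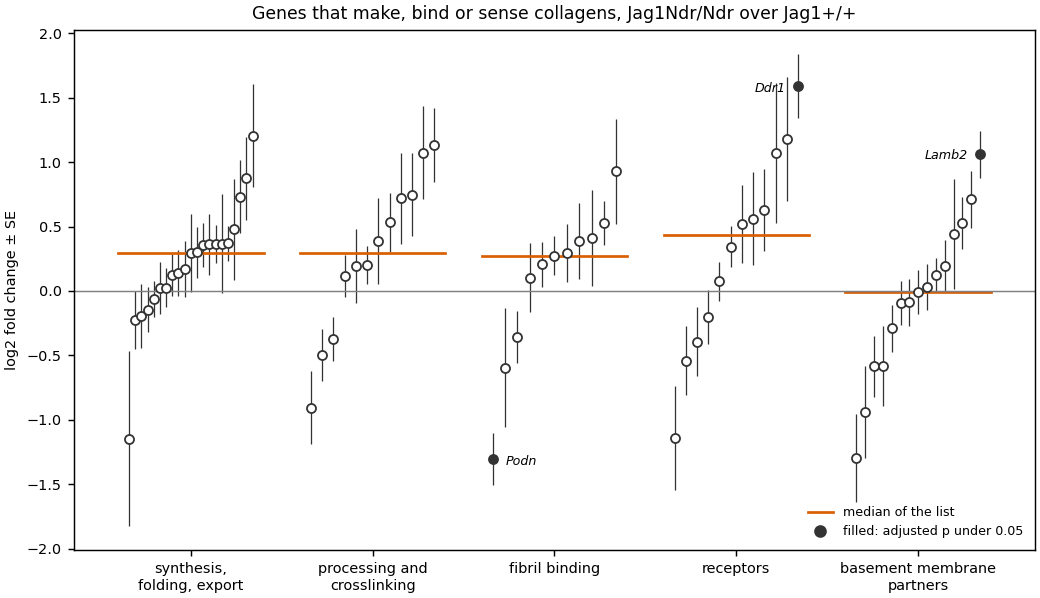
Log2 fold change (y axis, Jag1Ndr/Ndr over Jag1+/+, with 1 SE to each side) of the tested genes in 5 lists around collagen. Filled points passed an adjusted p of 0.05 and horizontal lines are list medians. Podn at -1.31, Ddr1 at 1.59 and Lamb2 at 1.06 are the only filled points.

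Markers of the cells that make collagen, and of other liver cells, were summed in each library, without a test of the sums. The 9 stellate cell markers summed to between 556 and 610 CPM in Jag1+/+ and between 417 and 442 CPM in Jag1Ndr/Ndr livers, with a median log2 fold change of -0.14. Most of that sum was Reln, at 197 ± 9.15 and 113 ± 22.7 CPM, and Ecm1, at 203 ± 6.46 and 149.9 ± 41.4 CPM. Without overlap, Reln, Ecm1, Lrat and Ngfr were lower and Des was higher, at 8.28 ± 1.39 and 14.6 ± 3.30 CPM, while Hgf, Pdgfrb, Rgs5 and Colec11 overlapped. Over all genes tested, 14.2% were lower and 14.8% higher without overlap. Of the 9 stellate cell markers only Reln was called (log2 fold change -0.80 ± 0.18, edgeR adjusted p = 0.0361). That call was lost with library totals alone (0.160), with sex as a covariate (0.0809), with limma on RPKM values (0.626 and 0.623) and in every fit that left out 1 library except Jag1Ndr/Ndr replicate 2 (0.0547 to 0.138). The 7 portal fibroblast markers summed to between 96.7 and 183 CPM and between 99.8 and 152 CPM, with no call (smallest edgeR adjusted p = 0.125). The 5 smooth muscle or myofibroblast markers summed to between 12.97 and 40.8 CPM and between 28.9 and 41.2 CPM, also with no call among 3 tested. The 4 mesothelial markers summed to between 4.94 and 24.1 CPM in Jag1+/+ and between 26.6 and 33.3 CPM in Jag1Ndr/Ndr livers, with no call (smallest edgeR adjusted p = 0.0577). Sums of 5 cholangiocyte markers were between 59.9 and 105 CPM and between 28.8 and 104 CPM, and those of 6 sinusoidal endothelial markers between 416 and 483 CPM and between 423 and 431 CPM. The 5 macrophage markers summed to between 403 and 694 CPM and between 853 and 1556 CPM, with Cd68 called higher (edgeR adjusted p = 0.0351). Most of the difference between these sums was Marco, at 155 ± 76.2 and 558 ± 336 CPM, which was not called (edgeR adjusted p = 0.0579). Clec4f, Adgre1 and Csf1r overlapped between genotypes and were not called. The Cd68 call was lost with sex as a covariate (0.0670), with limma on RPKM values (0.0587 and 0.0549) and in every fit that left out 1 library except Jag1Ndr/Ndr replicate 3 (0.0582 to 0.157). The 4 matched hepatocyte markers summed to between 212337 and 220243 CPM and between 102081 and 180286 CPM, with Ttr called lower (edgeR adjusted p = 0.0238). The Ttr call was lost without any 1 of the Jag1+/+ libraries (0.0962 to 0.104) or without Jag1Ndr/Ndr replicate 3 (0.0697). No marker of these lists was at 0 reads. Of the muscle markers, Myh4 was at 0 and the others had at most 36 reads, and the cartilage and bone markers other than Sox9 had at most 26 reads. The part of these cell types in the collagen values was not tested.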

How the data were processed

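RNA-seq of 6 liver libraries was used. The deposited table gives, for each RefSeq gene, read counts that the authors left unnormalized, and RPKM that the authors scaled by TMM factors listed per the file headers. The submitters' processing notes name STAR and mm10; versions and the read counter are not given in the sources used here, and the library kit does not mark strand. Deposited RPKM divided by the header factors followed reads over library total to within 5% in 98% of values (11559 genes checked), so the authors multiplied by these factors, whereas edgeR divides by its own.

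Of 24489 entries, 13819 passed edgeR's filterByExpr; 93 spike-in and eGFP entries with 5 reads were left out. After TMM scaling, the quasi-likelihood test of edgeR 4.0.16 (in R 4.3.3, beside DESeq2 1.42.0 and limma 3.58.1) was run two-sided, with Benjamini-Hochberg adjustment over all genes tested. Each SE was computed as the absolute log2 fold change divided by the square root of F. Named are all collagens with at least 10 reads (per library if called, if in collagen I, III or the main collagen IV, or among the 4 highest RPKM of a class), and called genes of the further lists. Col5a2, Col5a3, Col6a5, Col9a2, Col13a1, Col17a1, Col27a1, Alb, Des, Ecm1, Marco, Serpinh1, P4ha2, Adamts14, Lox, Loxl4, Dcn and Ddr2 were chosen after their values were seen. The members and lists were chosen with earlier results of these data known. Positions are from RefSeq on GRCm38. Exact permutation tests used scipy 1.17.1. The alternatives were no filter or a stricter one, library totals without TMM, DESeq2, limma on the deposited RPKM (pseudocounts 1 and 0.1), a replicate block, sex as a covariate and leaving out each library.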

Additional observations from a re-analysis of the deposited data

How the results depend on the processing

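The number of all genes higher and lower in Jag1Ndr/Ndr livers was 653 and 401. DESeq2 gave 1137 and 753, limma on the deposited RPKM 388 and 101 (pseudocount 1) or 427 and 117 (pseudocount 0.1), sex as a covariate 366 and 230, and library totals without TMM 606 and 210. Leaving out 1 library gave 155 to 679 higher and 127 to 532 lower genes. The number of collagens higher, 0 by the main test, was 2 without a filter, 1 with library totals, 4 by DESeq2, 1 with the replicate block, 1 with sex as a covariate and 0 to 3 without 1 library. The number lower, 3, was 1 under the stricter filter and 1 with limma on RPKM (pseudocount 1), and 1 to 3 without 1 library. It was also below 3 with DESeq2, library totals, limma on RPKM (pseudocount 0.1) and sex as a covariate, where Col9a3 lost its call. Library totals and deposited RPKM shifted the median of all genes from 0.0041 to 0.13 and to 0.18 (pseudocount 1) or 0.22 (pseudocount 0.1).

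Some log2 fold changes near 0 changed sign. With sex as a covariate Col12a1 stood at -0.18, Col16a1 at -0.14, Col17a1 at -0.51 and Col4a4 at -0.68. DESeq2 gave -0.094 for Col17a1 and -0.042 for Col4a4, and no filter gave -0.0041 for Col16a1. The deposited RPKM gave, with pseudocounts 1 and 0.1, 0.21 and 0.22 for Col1a2, 0.20 and 0.20 for Col4a1, 0.035 and 0.035 for Col18a1 and 0.017 and 0.061 for Col8a2, and -0.13 for Col17a1 with 0.1. Library totals gave 0.094 for Col1a2 and 0.12 for Col4a1. Without 1 library, values ran from -0.23 to 0.37 for Col12a1, -0.11 to 0.12 for Col16a1, -3.06 to 0.61 for Col17a1, -0.15 to 0.16 for Col1a2, -0.14 to 0.56 for Col20a1, -0.16 to 0.097 for Col4a1, -0.019 to 0.13 for Col4a2, -0.31 to 0.62 for Col4a4 and -0.45 to 0.18 for Col8a2, and the log2 difference of the ratio Col6a1 to Col6a2 from -0.22 to 0.040. The cause of these changes was not tested.

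The sample codes of same-numbered libraries begin alike in both genotypes, but the labels do not say what this marks. The replicate numbers did not meet the mark for pairing, a correlation over 0.1 in every pair: deviations from the genotype means of same-numbered libraries correlated at 0.0856, 0.17 and 0.195, although every library correlated best with its own number. Libraries of unlike number correlated at between -0.169 and -0.0188. Because deviations were taken from the genotype means, these values depend on the former ones and are not separate evidence. Same-numbered libraries were also of unlike sex in every pair, which this check did not account for. Since only 1 pair missed the mark, and narrowly, whether the libraries were paired is not settled, and the main test treats them as unpaired. A replicate block gave 843 higher and 587 lower genes, with Col17a1 at -0.45, and Col6a1 then passed (adjusted p = 0.0489). Low counts limit the calls on Col26a1 and Col9a3, with 5 and 13 reads over the Jag1Ndr/Ndr libraries.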
